A study of Mus musculus with 11 samples.

Results

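The genes described here encode the proteins of the cytosolic ribosome. A row of the count table was a member if its symbol had the form of a ribosomal protein gene of the large (Rpl) or small (Rps) subunit, or was Rplp0, Rplp1, Rplp2 or Rpsa, and if it held at least 110 counts over the 11 libraries. Kinase genes such as Rps6ka1 were left out by their letter k. Of 93 matching rows among the 54532 of the table, 87 were members, and all 87 also passed the count filter of the tests. They comprise 50 rows named for the large subunit, 36 for the small subunit, and Rps19bp1, a protein that binds the ribosomal protein S19 and is not itself part of the ribosome. The threshold separated Rpl29, Rpl26 and Rpl24, just inside with 273, 385 and 677 counts, from Rpl36al and Rpl3l, just outside with 105 and 103. The other rows outside were Rpl32l with 20 counts, Rpl39l with 1, and Rpl10l and Rps12l1 with 0. The GENCODE M21 annotation types 82 members as protein-coding and 5 (Rpl37rt, Rpl6l, Rps3a2, Rps3a3 and Rps4l) as processed pseudogenes, which are reverse-transcribed copies of a messenger RNA.

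Total RNA came from dissected lateral habenula, an epithalamic brain nucleus active when outcomes are worse than hoped for, of BALB/c mice aged 3 months. Arthritis mice (CAIA, collagen antibody-induced arthritis) had received a cocktail of 5 monoclonal antibodies to type II collagen at 50 mg/kg and, 3 days later, lipopolysaccharide at 1 mg/kg, both into the peritoneum. Control mice (Ctrl) received vehicle, so the antibodies, lipopolysaccharide and the arthritis they produce cannot be told apart. There were 3 female control, 3 female CAIA, 2 male control (replicates 1 and 3) and 3 male CAIA libraries, with 25317306 to 29565006 counts each. No label states that each library is a separate animal, so the p-values measure the spread between these libraries, which may be technical.

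Each ribosome holds a single copy of nearly every ribosomal protein, and free ribosomal proteins are degraded, so cells make the proteins in matched amounts. Much of this matching takes place in translation. Ribosomal protein messenger RNAs typically begin with a C followed by a run of pyrimidines, the 5′ terminal oligopyrimidine (TOP) motif, which the protein Larp1 binds and through which the kinase mTOR sets how much is translated. In neurons ribosomal protein messenger RNAs also reach dendrites and axons, where local translation occurs. RNA counts report on the amount of messenger RNA and not on its translation.

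The annotated transcription starts of several members show the TOP motif in its textbook form, and 8 starts are printed to show the motif and how much it varies, followed by 1 start that was not counted. Each line runs from 15 bases before the start to 15 bases from it, on GRCm38.p6, and capitals mark the run of C and T that begins at the start base.
Rpl15 (chr14:18270972-18271001, minus strand): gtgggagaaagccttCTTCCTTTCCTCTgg
Rpl35 (chr2:39005117-39005146, minus strand): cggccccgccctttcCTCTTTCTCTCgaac
Rpl38 (chr11:114668565-114668594, plus strand): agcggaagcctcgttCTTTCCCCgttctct
Rplp2 (chr7:141447636-141447665, plus strand): tgcgtcagcgtcttcCTTTCgccgccggac
Rps6 (chr4:86857353-86857382, minus strand): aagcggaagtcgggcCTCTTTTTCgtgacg
Rps15a (chr7:118116133-118116162, minus strand): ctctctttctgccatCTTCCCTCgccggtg
Rps27 (chr3:90213634-90213663, minus strand): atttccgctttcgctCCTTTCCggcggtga
Rps27rt (chr9:114982725-114982754, minus strand): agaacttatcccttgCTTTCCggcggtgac
Rpl27a (chr7:109519180-109519209, plus strand): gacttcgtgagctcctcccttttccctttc

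A start counted as a TOP run when it was a C followed by at least 4 more bases that were all C or T. By this rule 14 of the 63 members with a start in the RefSeq promoter table had a TOP run (22.2%). Of all 27025 genes of that promoter table, taken without regard to their counts here, 3.01% had a run. The shares of all genes given below are over the same 27025. None of 69 mitochondrial ribosomal protein genes, whose products serve the ribosome of the mitochondrion, had a run. Rpl27a was not counted because its annotated start is a T inside a pyrimidine stretch. The rule reads 1 annotated base, so a start annotated a few bases away from the one used in the tissue misses the run. In the 300-base window around the start, the letters CCGGAAG, the core of sites for the factor GABP, stood on either strand at 39.7% of members, 37.7% of mitochondrial ribosomal protein genes and 9.93% of all genes. GGGCGG (SP1) stood at 61.9% of members, 49.3% of mitochondrial ribosomal protein genes and 38.2% of all genes. For AAGATGGC (YY1) these shares were 9.52%, 17.4% and 3.19%, and for TATAAA 11.1%, 7.25% and 15.7%. Of 23 genes for translation initiation factors, 73.9% held GGGCGG and 17.4% AAGATGGC. Of 12 genes listed as other TOP messenger RNAs, 50.0% and 8.33% did.

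Levels were compared between genes as CPM (counts scaled to library size) per kilobase of annotated exon, as means over the 11 libraries. Annotated exon joins the exons of all transcripts of a gene, with a median of 1734 bases in members against 860 for the main transcript. Rpl13, at 254 CPM, had 2595 bases of exon but a main transcript of 780. The order of genes can therefore differ by transcript length, which was not computed. The median member stood at 42.2 CPM per kilobase. The highest was Rplp1, an acidic protein of the stalk that recruits elongation factors, at 471 ± 71.0 (SD over libraries). Rps15 followed at 272 ± 46.9, then Rpl4 at 179 ± 12.9, Rpl8 at 170 ± 19.5 and Rps3a1 at 149 ± 16.6. The ranges of Rplp1 and Rps15 over the libraries did not overlap, whereas those of Rpl4, Rpl8 and Rps3a1 did. The other stalk genes were far lower than Rplp1, with Rplp0, which anchors the stalk to the ribosome, at 42.2 and Rplp2, the partner of Rplp1, at 35.95 CPM per kilobase. The processed pseudogene Gm8730, which holds 6.27% of the windows of Rplp0, had 23024 counts against its 20975.

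**Figure D1:**
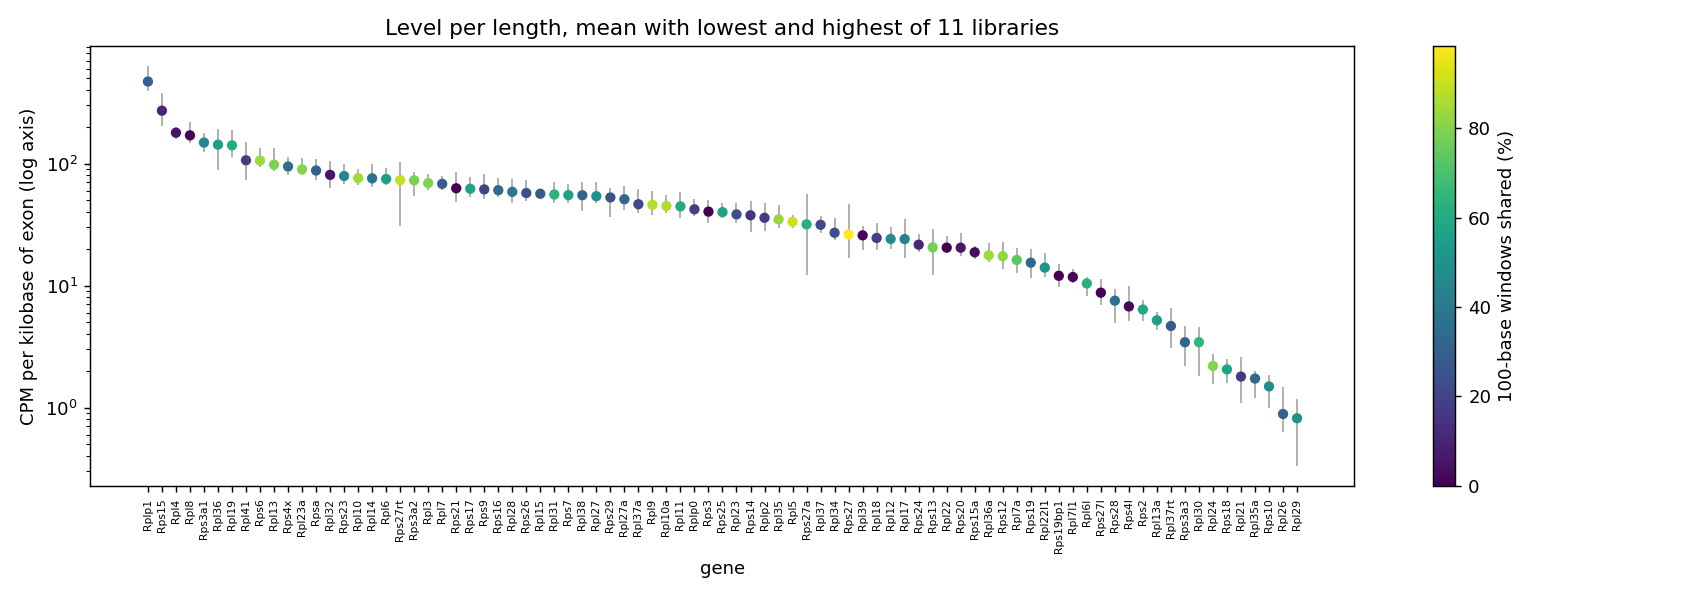
Level of the members drawn in CPM per kilobase of annotated exon (log axis), ordered from highest to lowest; points are means over the 11 libraries, lines run from the lowest to the highest library, and colour gives the percent of 100-base windows of the transcript also found in transcripts of other genes. Rplp1 stands at 471 and Rpl29 at 0.817, and dark and light points occur along the whole order.

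The lowest members were Rpl29 at 0.817 ± 0.266, Rpl26 at 0.886 ± 0.259, Rps10 at 1.49 ± 0.298, Rpl35a at 1.73 ± 0.224 and Rpl21 at 1.79 ± 0.423 CPM per kilobase. The ratio of the highest to the lowest member was 576. Each of these 5 low rows had a row elsewhere in the genome that shares 100-base windows with its transcript and held more counts. Rpl26 had 385 counts over all libraries, and Gm15772, a processed pseudogene on chromosome 5 that holds 27.4% of its windows, had 41701. Rpl29 had 273 counts against 4558 for the pseudogene Gm13841, which holds 23.8% of its windows. Rps10 had 1026 against 10845 for Rps10-ps2, and Rpl35a had 1824 against 2097 for Gm10243. Rpl21 had 1810 against 13659 for the protein-coding BC004004, which shares 7.46% of its windows and whose counts include its other exons. Over all other rows, the share of windows held elsewhere was 50.95% for Rpl29, 47.7% for Rps10, 31.9% for Rpl35a, 31.0% for Rpl26 and 16.7% for Rpl21. How reads that map to several places were counted is not given in the sources used here, and the part of the copies in these low levels was not tested.

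Sharing of this kind was widespread among the members. Of the 87, 81 had at least 1 row that shares a 100-base window, and in 16 of these the largest such row held more counts than the member. In 12 of the 16 the row shared at least 20% of the member's windows. These included Rps2, with 3479 counts against 43088 for Rps2-ps10, and Rpl17, with 9575 against 21541 for Rpl17-ps10. In others of the 16 the larger row was itself a member. Those were Rpl37rt beside Rpl37, Rpl6l beside Rpl6, Rps3a2 and Rps3a3 beside Rps3a1, and Rps27rt beside Rps27. No window was shared in 6 members, among them Rpl22, Rps3 and Rps27l. In 30 members the largest sharing row held under 5% as many counts as the member, among them Rplp1, Rpl4, Rpl8 and Rps15, which are 4 of the 5 highest levels. Across the members, the level per kilobase and the percent of windows shared had a Spearman rho of 0.013 (n = 87 genes, which are not independent replicates). The median level was 42.2 CPM per kilobase in the 53 members that share under 50% of windows and 42.3 in the 34 others.

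Most members moved up and down together between libraries, and this shared level was measured as their mean log2 CPM. Female controls stood at 5.68, 5.53 and 5.56 and female CAIA libraries at 5.58, 5.70 and 5.75. Male control replicate 1 stood at 6.002, male control replicate 3 at 5.59, and male CAIA libraries at 5.68, 5.60 and 5.82. All groups overlapped, and male control replicate 1 stood above every other library. As a share of all counts, the members took 0.677% to 0.753% in female controls, 0.714% to 0.805% in female CAIA, 0.971% and 0.715% in the male controls, and 0.728% to 0.858% in male CAIA. The mean shared level was 5.59 ± 0.08 in female controls and 5.68 ± 0.09 in female CAIA (SD, n = 3 each). Male controls averaged 5.79 ± 0.29 (n = 2), and male CAIA libraries 5.70 ± 0.11 (n = 3). The pooled SD within groups was 0.14, beside differences of CAIA minus control of 0.09 in females and -0.10 in males. Without male control replicate 1 the pooled SD was 0.09 and the male difference 0.11, with the opposite sign. That difference rests on 1 male control library, so it cannot be told from the spread between libraries.

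In male control replicate 1, 67 of the 87 members had their highest value of the 11 libraries, 77%, whereas 20% of all genes tested did. Other transcripts also stood high there. The 827 other protein-coding genes with a transcript under 1000 bases, a measure chosen after the library was seen, had a median of 0.29 log2 above their mean in that library and between -0.09 and 0.06 in the other 10. The members have short transcripts, with a median of 860 bases against 2703.5 for all genes tested. Within the members, the median departure there was 0.35 in the 58 with a transcript under 1000 bases and 0.32 in the 29 longer ones. Genes for mitochondrial ribosomal proteins averaged 4.76 log2 CPM in that library against 4.36 to 4.58 elsewhere, and genes for the respiratory chain 6.40 against 5.85 to 6.23. Summed astrocyte markers were lowest there, at 2181 CPM against 2511 to 3495 elsewhere, as were hippocampus and cortex markers, at 740.5 against 751 to 1037. Endothelial markers were highest there, at 792 against 603 to 714.5. The other cell marker lists were not at either end in this library. What in this library moved with the level was not tested.

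**Figure D2:**
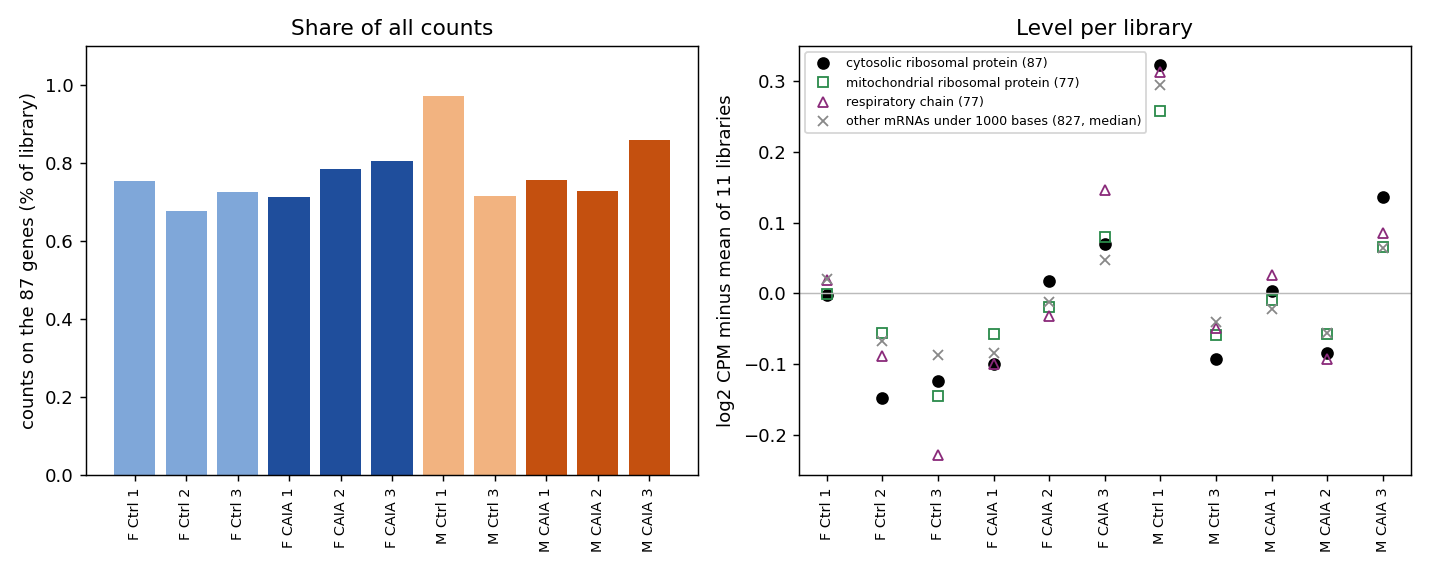
Left, percent of all counts that fell on the 87 members in each library (F female, M male); right, the members' mean log2 CPM minus its mean over the 11 libraries, beside that of mitochondrial ribosomal protein genes, respiratory chain genes and the median of 827 other genes with transcripts under 1000 bases. All 4 measures are highest in male control replicate 1, where the members took 0.971% of counts.

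Members followed one another closely. Subtracting the shared level made the SD over the 11 libraries smaller in 77 of the 87 members, against 23.8% of all genes tested. For this count the level of each member was taken over the other members, without the gene itself. Since it still comes from the same list, the count is a description and not a test. The share was not taken separately for the short, mitochondrial ribosomal protein or respiratory chain genes above, nor without male control replicate 1. The levels of those sets were also highest in that library, so moving together is not shown to be particular to the members. The median SD of a member's log2 CPM was 0.18 and fell to 0.09 after subtracting the mean of all members, the gene itself included. Rps6, the protein that S6 kinases phosphorylate, was among the tightest members, with an SD of departures of 0.04. It stood at 162, 151 and 150 CPM in control females, 164, 170 and 178 in CAIA females, 213 and 160 in male controls, and 168, 154 and 180 in male CAIA. Rps6, like the shared level, was highest in male control replicate 1.

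**Figure D3:**
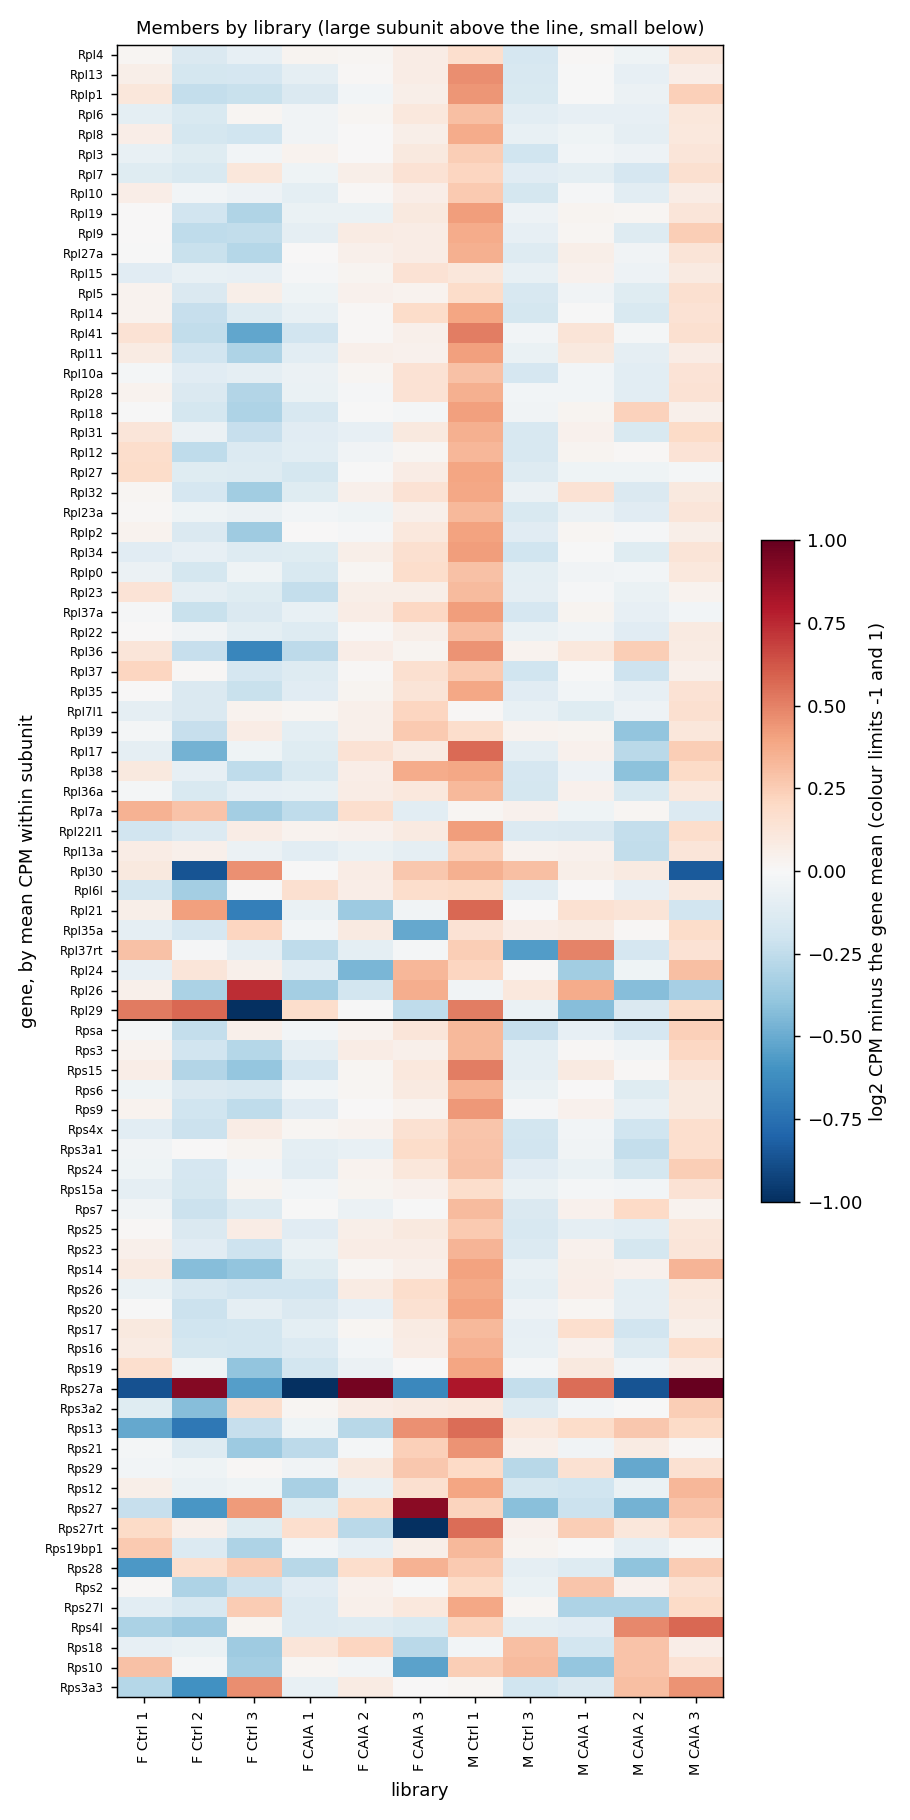
Log2 CPM of the members drawn minus their own means over the 11 libraries, with large-subunit genes above the line and small-subunit genes and Rps19bp1 below, ordered by mean CPM; colour saturates at -1 and 1. The column of male control replicate 1 is red in most rows, and Rps27a, Rps27, Rps27rt, Rpl29 and Rpl30 break from the shared pattern.

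The most uneven members were Rps27a, Rpl29, Rpl30, Rps27rt and Rps27, with an SD of departures of 0.81, 0.46, 0.45, 0.45 and 0.40. Rps27a encodes a fusion of ubiquitin with the ribosomal protein S27a, and lies at chr11:29545846-29548109 on the minus strand, where the annotation places Clhc1 on the opposite strand. It was at 29.3, 101 and 36.4 CPM in control females, 24.0, 104 and 34.2 in CAIA females, 93.9 and 45.4 in male controls, and 79.0, 29.4 and 112 in male CAIA. The 5 libraries at 79.0 or more were spread over all 4 groups, and the other 6 lay at 45.4 or below. Its log2 fold change was 0.02 ± 0.59 over both sexes (CAIA against control ± SE). Rps27a shares 62.6% of its windows with 5 other rows, which together held 2247 counts against its own 18673. The largest of these, the pseudogene Gm8430, was at 78 to 207 counts per library while Rps27a ranged from 676 to 3120. Fau, which encodes a ubiquitin-like protein fused to S30 and lies outside the naming rule, was at 98.7 to 178 CPM with a log2 fold change of -0.03 ± 0.10 over both sexes.

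Rps27 and Rps27rt differ in their position but not in their coding sequence. Rps27 has introns and its coding sequence lies within chr3:90212728-90213615, and that of Rps27rt is a single block at chr9:114982456-114982707, both on the minus strand of GRCm38. The 252 coding bases, without the stop codon, had 0 differing bases. They are printed once because reads inside them cannot be assigned to either gene.
Rps27 and Rps27rt coding sequence: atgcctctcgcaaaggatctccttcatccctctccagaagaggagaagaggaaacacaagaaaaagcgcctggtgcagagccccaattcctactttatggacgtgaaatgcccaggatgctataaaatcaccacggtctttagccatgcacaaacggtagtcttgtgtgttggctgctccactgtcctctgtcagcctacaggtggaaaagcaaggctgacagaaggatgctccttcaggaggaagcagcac

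Rps27 was at 22.3, 17.5 and 35.2 CPM in control females, 24.1, 29.9 and 48.9 in CAIA females, 30.6 and 19.5 in male controls, and 22.5, 18.8 and 31.9 in male CAIA. Rps27rt was at 30.1, 27.3 and 24.3, then 29.6, 21.9 and 11.5, then 38.8 and 27.1, and then 31.2, 28.5 and 30.6 CPM in the same order. Female CAIA replicate 3 had the highest Rps27 and the lowest Rps27rt of all libraries. Rps27rt made up 19.1% of the sum of both rows in that library and 40.8% to 61.0% in the other 10. The sum itself was steadier, at 44.1 to 69.6 CPM by total counts, and was highest in male control replicate 1, as the shared level was. Over both sexes the log2 fold change was 0.21 ± 0.27 for Rps27, -0.25 ± 0.21 for Rps27rt and 0.00 ± 0.11 for the summed row, an alternative added after these values were seen. The paralog Rps27l, known as a target of p53, shares 76.2% of the coding bases of Rps27 and no 100-base window with any row, and was at 5.68 to 9.26 CPM.

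**Figure D4:**
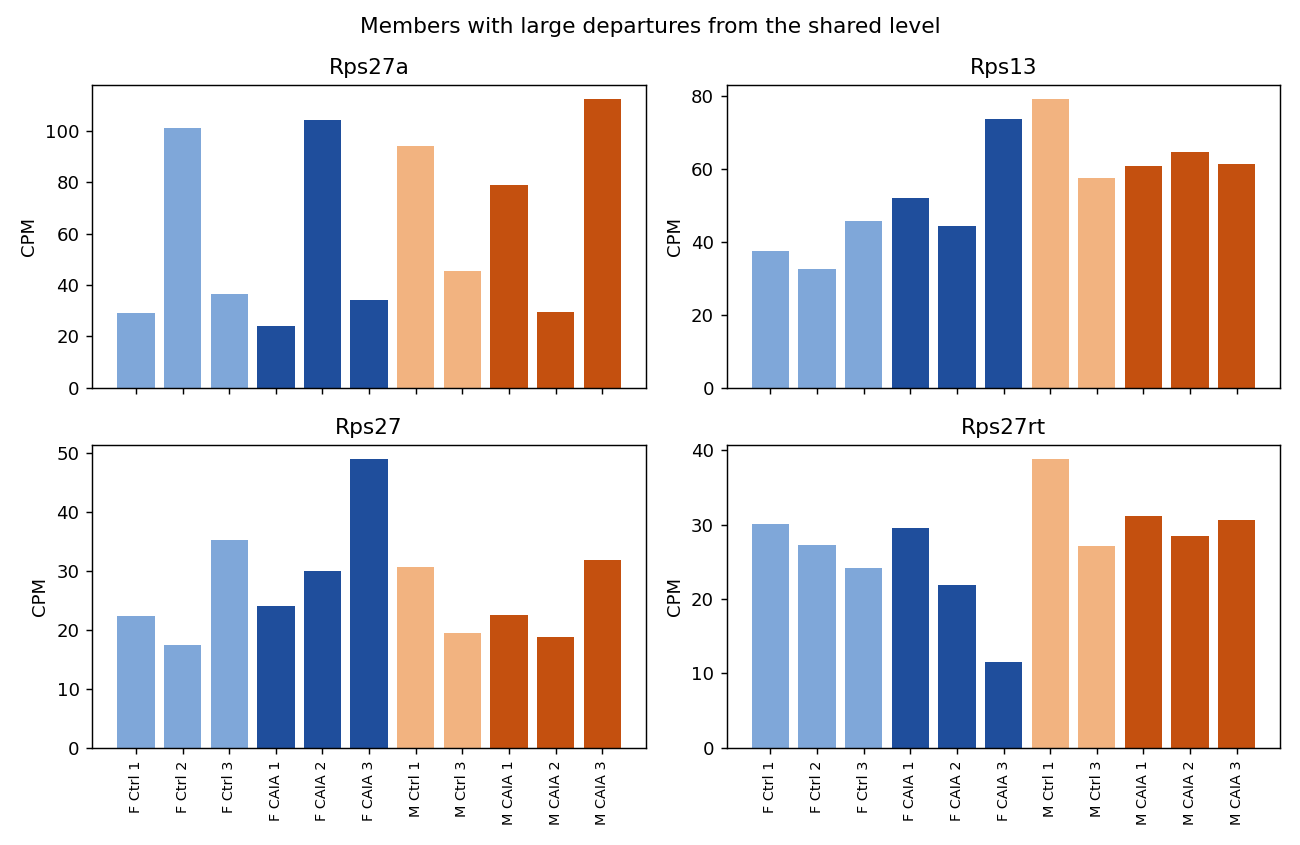
CPM (counts scaled to library size) of Rps27a, Rps13, Rps27 and Rps27rt in each of the 11 libraries, coloured by group (F female, M male). Rps27a lies at 79.0 or more in 5 libraries and at 45.4 or less in 6, and female CAIA replicate 3 has the highest Rps27 and the lowest Rps27rt.

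The main comparison asked whether CAIA changed these genes over both sexes. No member passed an adjusted p of 0.05 (edgeR's quasi-likelihood test with Benjamini-Hochberg adjustment over all genes), against 0.596% of the 19619 genes tested, and 0 members had an unadjusted p under 0.05, against 6.36% of genes. DESeq2 and limma-voom also called 0 members. The members' log2 fold changes lay between -0.29 and 0.21, with 38 above and 49 below 0 (50% of all genes on each side) and a median of -0.01, beside 0.00 for all genes. The lowest p values belonged to Rpl13a at -0.13 ± 0.09 (adjusted p = 0.885) and Rps13 at 0.21 ± 0.14 (adjusted p = 0.887). Then came Rpl7l1 at 0.10 ± 0.07, Rpl6l at 0.13 ± 0.10, Rps27l at -0.17 ± 0.13, Rps3a2 at 0.12 ± 0.10 and Rps2 at 0.12 ± 0.09. Rps4l stood at 0.17 ± 0.14, Rpl15 at 0.07 ± 0.06, Rps10 at -0.21 ± 0.17 and Rpl21 at -0.21 ± 0.18. In no member did every CAIA library lie above, or every one below, all control libraries, which 0.168% and 1.01% of genes did. The stalk genes stood between -0.02 and 0.02. A p that misses the threshold does not show that a gene was unaltered, and the median SE of a member was 0.09.

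In females no member passed, against 0.26% of genes, and 69 of 87 log2 fold changes were above 0 (all genes 49.5%), with a median of 0.11 beside 0.00 for all genes. At an unadjusted p under 0.05, 2 members were higher in CAIA, against 1.16% of genes. One was Rps13, a protein of the small subunit, whose gene lies at chr7:116331505-116334195 on the minus strand. Female controls stood at 37.6, 32.7 and 45.7 CPM and female CAIA libraries at 51.9, 44.3 and 73.7, so the groups overlapped by 1 library. Its log2 fold change was 0.55 ± 0.19 (adjusted p = 0.606), and 0.31 without female CAIA replicate 3, its highest library, against up to 0.69 without female CAIA replicate 2. The other was Rpl6l, typed as a processed pseudogene of Rpl6, at 7.94, 7.11 and 8.99 CPM in controls and 10.1, 9.42 and 10.2 in CAIA, with 0.30 ± 0.13 (adjusted p = 0.905). Every female CAIA library lay above every control in 6 members (Rpl15, Rpl27a, Rpl3, Rpl4, Rpl6l and Rps6), against 5.08% of genes, and below in 1, Rpl13a, against 6.39%. Rpl15, a protein of the large subunit, was at 129, 133 and 132 CPM in controls and 138, 142 and 154 in CAIA, a log2 fold change of 0.14 ± 0.08. Rpl27a stood at 0.21 ± 0.11, Rpl7l1 at 0.16 ± 0.10 and Rpl37a at 0.20 ± 0.12.

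In males the signs were mostly the other way, and this rested on a single library. No member passed, 0% of all genes did, 0 members had an unadjusted p under 0.05 against 5.63% of genes, and 78 of 87 log2 fold changes were below 0 (all genes 50.2%), with a median of -0.11 beside 0.00. Without male control replicate 1, 75 of 87 were above 0, with a median of 0.12 beside 0.01 for all genes. With replicate 1 kept and male control replicate 3 left out, 83 were below 0, and the median was -0.30 beside 0.02 for all genes. With 1 male control left, the spread in these fits came from the other groups alone. The lowest p values in the full set belonged to Rps27l at -0.34 ± 0.20 (adjusted p = 0.914), Rps21 at -0.24 ± 0.15 and Rps9 at -0.20 ± 0.13. Every male CAIA library lay below both controls in 2 members, Rpl30 and Rps19bp1, against 8.51% of genes. Rpl30 was at 12.8 and 12.3 CPM in controls and 10.4, 10.6 and 5.54 in CAIA, with a log2 fold change of -0.51 ± 0.34. Without male CAIA replicate 3, its lowest library, that was -0.26, and leaving out each other library gave -0.67 to -0.49. Its shared row Gm12191 held 11818 counts against its own 3118.

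**Figure D5:**
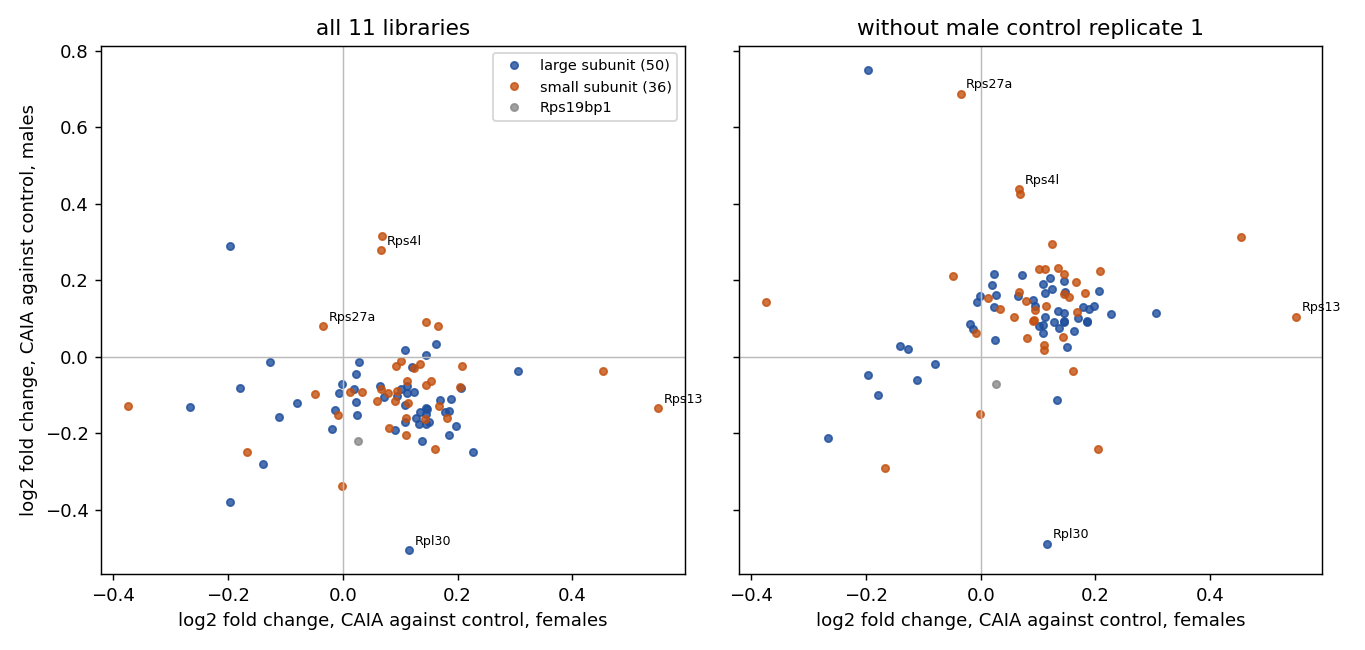
Log2 fold change of CAIA against control in females (horizontal) and males (vertical) for each member, with all 11 libraries (left) and with the male values refitted without male control replicate 1 (right); the female values are those of the full set in both. With all libraries 78 members lie below 0 in males, and without that library 75 lie above 0.

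The difference between the female and the male change was above 0 in 79 members (all genes 48%), with a median of 0.19 beside -0.01 for all genes. No member and 0% of genes passed. Without male control replicate 1 the median difference was -0.03, and without male control replicate 3 it was 0.39. Rps13 had the lowest p, with a difference of 0.68 ± 0.27 (adjusted p = 0.978). That difference was 0.44 without female CAIA replicate 3 or without male control replicate 1, and 0.89 without male control replicate 3. Rps13 was the 1 member with an unadjusted p under 0.05 and a higher change in females, against 1.14% of genes. Rps21, Rpl37a, Rps6, Rpl28 and Rps9 followed, with differences of 0.40, 0.38, 0.31, 0.32 and 0.31.

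Between the sexes over both treatments, 80 of 87 members were lower in females (all genes 49%), with a median of -0.10 beside 0.00, and no member passed, against 0.0459% of genes. At an unadjusted p under 0.05, 12 members were lower in females and 0 higher, against 3.63% and 3.12% of genes. Rps13 again had the lowest p, at -0.48 ± 0.14 (adjusted p = 0.717), and its male libraries lay at 57.6 to 79.0 CPM. Rpl18 stood at -0.26 ± 0.09, Rps4l at -0.38 ± 0.14, Rpl36 at -0.34 ± 0.13, Rps14 at -0.29 ± 0.11 and Rpl19 at -0.21 ± 0.08. In no member did all female libraries lie below all male ones, against 0.357% of genes. Without male control replicate 1 the median was 0.00, as for all genes, with 46 members lower in females.

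Other short transcripts had the same signs. The 827 short genes outside the members had medians of 0.04 in females, -0.14 in males, 0.17 for the difference and -0.09 between the sexes. Mitochondrial ribosomal protein genes had 60 of 77 above 0 in females and 68 of 77 below 0 in males, with medians of 0.06 and -0.10, and respiratory chain genes had medians of 0.09 and -0.14. None of these genes passed in either sex, and at an unadjusted p under 0.05 stood 2 and 2 mitochondrial ribosomal protein genes and 1 and 4 respiratory chain genes in females and males. Within the members, the 14 with a TOP run had medians of 0.15 in females, -0.14 in males, 0.28 for the difference and -0.14 between the sexes. The 49 without a run had 0.11, -0.12, 0.19 and -0.09, and these sets were not tested against each other. Members under and over 50% of shared windows had medians of 0.11 and 0.11 in females and -0.12 and -0.10 in males.

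The genes that act on the ribosomal proteins' messenger RNAs or build the ribosome were taken as whole lists, over both sexes. None of 7 elongation factors, 28 initiation factors, 30 ribosome assembly factors, 12 genes of RNA polymerase I and its factors, 15 other TOP messenger RNAs or 77 mitochondrial ribosomal protein genes passed in either direction. At an unadjusted p under 0.05 stood 1 gene, of the assembly factors. The medians lay between -0.06 and 0.04. Of 20 genes of the mTOR pathway and TOP control, none passed. Ddit4, an inhibitor of mTOR complex 1 that stress hormones induce, came nearest with 0.44 ± 0.10 (adjusted p = 0.101), and Larp1 stood at -0.02 ± 0.07. Of 8 genes of the Myc family and its partners, 1 passed. That was Mycl, a transcription factor of the Myc family, whose targets are known to include ribosomal protein genes. It was at 12.8, 11.6 and 14.03 CPM in control females, 19.2, 18.9 and 15.3 in CAIA females, 12.5 and 11.8 in male controls, and 16.6, 21.5 and 19.6 in male CAIA. All CAIA libraries lay above all controls, and Mycl rose by 0.57 ± 0.10 (adjusted p = 0.0134).

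Choroid plexus markers did divide the groups. The summed level of 14 choroid plexus markers was 2735 to 5670 CPM in controls and 257 to 2140 in CAIA, and all 14 had log2 fold changes below 0, of which 6 passed. Of 12 meningeal fibroblast markers, 10 were below 0 over both sexes and 3 passed. Their summed level was 129 to 159 CPM in control females against 76.5 to 92.1 in CAIA females, and 109 and 129 in control males against 78.9 to 124 in CAIA males. Over both sexes 7 of 8 astrocyte markers were above 0 and 0 passed, with 2 at an unadjusted p under 0.05. This was not particular to astrocytes, since all 8 neuron and all 8 microglia markers were also above 0. Of oligodendrocyte and endothelial markers 4 of 8 and 3 of 8 were, and 0 passed in any of these lists. Of 10 hippocampus and cortex markers, 8 were above 0 in males, with a median log2 fold change of 1.096, and 0 passed. Every male CAIA library lay above both controls in 6 of the 10, against 1801 of the 19619 genes tested. In females the direction was the other way, with 7 of the 10 below 0, a median of -0.24 and 0 passing. Over both sexes 7 were above 0, with a median of 0.23, and 0 passed. Markers of the habenula itself did not divide the groups, with 8 lateral habenula markers at 1087 to 1426 and 1186 to 1386 CPM and 12 medial habenula markers at 1519 to 2079 and 1597 to 2087 in controls and CAIA. Thalamus and pineal markers were also found. The 10 thalamus markers summed to 2798 to 4189 CPM in controls and 3356 to 4026 in CAIA, and 12 pineal markers to 119 to 178 and 124 to 199. Of 11 pineal markers tested over both sexes, 8 were above 0, with a median of 0.98, and 0 passed. In bulk tissue, fewer cells of a type and less RNA per cell cannot be told apart. The part of tissue makeup in the members' values was not tested.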

How the data were processed

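The authors deposited raw gene counts, as whole numbers. For its making, the submitters' processing notes list cutadapt 1.9.1, HISAT2 2.0.5, featureCounts 1.5.0-p3 and GRCm38. Strand, annotation release and treatment of multiply mapping reads were not given in the sources used here, and reads of members, pseudogenes and antisense genes cannot be told apart. Counts were tested in R 4.3.3 with edgeR 4.0.16 (filterByExpr by group, TMM, glmQLFit with robust estimation, glmQLFTest, two-sided), using 4 group means over all 11 libraries and 7 residual degrees of freedom. Adjustment (Benjamini-Hochberg) ran over all 19619 genes tested. SE was taken as the log2 fold change over the root of F. Log2 CPM used a prior count of 2. Alternatives used DESeq2 1.42.0 and limma 3.58.1. The fit was also run on simulated counts. These held no shift of a whole set of genes in 1 library, so that run does not bear on male control replicate 1.

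Exon lengths, transcripts and coordinates are GENCODE M21 (GRCm38), to which 54409 gene identifiers matched. Windows of 100 bases of each member's main transcript were searched in the transcripts of other genes, on both strands. Start sites are from RefSeq (GRCm38.p6), with 63 members matched. Members and lists were chosen with earlier results of these data known. Members named were among the 12 with the lowest p over both sexes and the 6 lowest in each other comparison, the 5 highest and 5 lowest per length, the 5 most uneven, the stalk genes, paralogs and Rps19bp1, with further examples of shared windows, tight members and groups that did not overlap. Up to 4 genes per pathway list were eligible, and Larp1 was added after its values were seen. Some genes are not reported by name here and are left out of the plots that label each member. Figures were drawn with matplotlib 3.10.9.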

Additional observations from a re-analysis of the deposited data

How the results depend on the processing

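No member passed, in any comparison that each could give, under other size factors, TMM without the members, a filter of 1 CPM in 2 libraries, DESeq2, limma-voom with or without quality weights, a threshold of 0.1, an additive model, each sex alone, or with any library left out. The exception was a fit with no count filter, where 2 members passed in females, 1 for the difference and 6 between the sexes, and where 452, 316 and 278 of all genes passed; the cause was not tested. Rps13 then stood at 0.55, 0.69 and -0.47 with adjusted p of 4e-05, 0.00223 and 1.6e-06. In females, the adjusted p of Rps13 over all alternatives ranged from 4e-05 to 1. Correlations of same-numbered libraries' deviations were -0.21 to 0.03, so no pairing by replicate number was seen. Such deviations are from means of 2 or 3 libraries, so these correlations cannot exclude a pairing. With the replicate block no member passed either, and the medians were 0.02 over both sexes, 0.11 in females, -0.08 in males, 0.17 for the difference and -0.09 between the sexes.

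With each library left out in turn, the members' median ranged from -0.11 to 0.11 over both sexes, 0.06 to 0.16 in females, -0.30 to 0.12 in males, -0.032 to 0.39 for the difference and -0.20 to 0.00 between the sexes. The ends of these ranges came from the male controls in all but the female comparison. Without male control replicate 1, Rps9, Rps20 and Rps6 in males changed sign, to 0.031, 0.048 and 0.053, and without male control replicate 3 they stood at -0.40, -0.38 and -0.34. Over both sexes, 74 of 87 members stood above 0 without male control replicate 1, with a median of 0.11 beside 0.00 for all genes. Counting error covers reads only, and 273 to 677 counts over all libraries limit Rpl29, Rpl26 and Rpl24.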
